A study of Mus musculus with 6 samples.

Results

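Expression of 10 Polycomb genes was described in mouse neural stem cells with and without Smchd1, a noncanonical SMC protein of chromatin that takes part in X inactivation and in silencing of some autosomal genes. The 10 genes were chosen by name: Ezh1, Ezh2, Eed, Suz12 and Jarid2 of Polycomb repressive complex 2 (PRC2), and Rnf2, Ring1, Bmi1, Pcgf6 and Kdm2b of Polycomb repressive complex 1 (PRC1). All 10 were found among the 27179 gene records of the count tables, and all 10 passed the filter on low counts, as did 14207 records in all. The Smchd1 null group held 3 libraries homozygous for the MommeD1 allele of Smchd1, and the wild type group held 3 libraries. Both groups were male, on a C57BL/6 x FVB/N background, and were neural stem cell cultures from E14.5 embryonic brains, kept in EGF and bFGF (20 ng/ml of either). Whether the replicates are separate derivations is not stated in the labels, so p-values measure the spread between these libraries, which may be technical.

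Polycomb complexes keep developmental genes silent through histone marks. PRC2 methylates lysine 27 of histone H3 through its catalytic subunit EZH2 or EZH1, which works only together with EED and SUZ12, and JARID2 is an accessory subunit that binds the complex to chromatin. PRC1 adds a ubiquitin to histone H2A (the H2AK119 mark) through RNF2 or RING1, each paired with a PCGF protein such as BMI1 or PCGF6, while KDM2B brings a variant form of PRC1 to unmethylated CpG islands. In neural stem cells Bmi1 is known for sustaining self-renewal, in part by repressing the cell cycle inhibitor locus Cdkn2a, and Ezh2 is known as the form found in dividing progenitors. In mouse, PRC1 is needed to place Smchd1 on the inactive X chromosome, which male cells lack.

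The promoters of both paralogue pairs, Ezh2 with Ezh1 and Rnf2 with Ring1, are shown because the members of each pair encode alternative catalytic subunits and lay far apart in level. They are the 250 bases before each annotated start (RefSeq, GRCm38.p6), 5′ to 3′ on the strand of the gene, with CG dinucleotides in capitals. The promoter of Ezh2 is chr6:47595031-47595280 (minus strand), from a start inside the outermost bounds of the gene, that of Ezh1 is chr11:101226464-101226713 (minus strand), that of Rnf2 is chr1:151500992-151501241 (minus strand) and that of Ring1 is chr17:34024681-34024930 (minus strand).
Ezh2: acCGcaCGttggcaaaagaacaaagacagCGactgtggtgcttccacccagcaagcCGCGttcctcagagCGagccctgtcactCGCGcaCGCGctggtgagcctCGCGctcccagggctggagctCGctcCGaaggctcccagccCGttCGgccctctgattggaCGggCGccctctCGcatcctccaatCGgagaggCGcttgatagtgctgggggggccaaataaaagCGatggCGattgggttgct
Ezh1: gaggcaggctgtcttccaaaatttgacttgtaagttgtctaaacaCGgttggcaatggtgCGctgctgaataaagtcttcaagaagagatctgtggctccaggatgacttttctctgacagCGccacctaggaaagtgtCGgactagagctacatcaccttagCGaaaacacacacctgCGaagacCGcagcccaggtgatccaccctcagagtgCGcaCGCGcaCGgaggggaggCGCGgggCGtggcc
Rnf2: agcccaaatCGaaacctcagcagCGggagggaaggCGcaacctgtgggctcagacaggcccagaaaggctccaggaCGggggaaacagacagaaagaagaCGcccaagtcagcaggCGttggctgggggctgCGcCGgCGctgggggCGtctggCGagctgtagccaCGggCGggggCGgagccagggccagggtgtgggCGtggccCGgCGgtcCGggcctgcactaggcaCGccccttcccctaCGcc
Ring1: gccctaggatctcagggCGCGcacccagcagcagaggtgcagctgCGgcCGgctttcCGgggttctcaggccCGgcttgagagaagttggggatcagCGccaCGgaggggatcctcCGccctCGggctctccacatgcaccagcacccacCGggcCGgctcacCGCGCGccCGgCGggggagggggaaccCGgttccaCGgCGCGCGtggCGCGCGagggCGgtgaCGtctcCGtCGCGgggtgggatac
The Ezh2 promoter held 23 CG dinucleotides and that of Ezh1 14, while the Rnf2 promoter held 20 and that of Ring1 30. The median over 32851 RefSeq promoters of the same length was 6. All 10 genes matched the table, with 14 promoters in all, which held between 12 and 38 CG dinucleotides. The weakly expressed gene had fewer than its paralogue in the Ezh pair and more in the Ring pair.

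A pair of E2F-type motifs, TTTGGCGC and TTTCCCGC, was searched on both strands of the 300 bases from 250 before to 50 after each start, because Ezh2 is known as a target of E2F factors in dividing cells. The first was found in 0.514% and the second in 1.07% of all 32851 windows. Among the 10 genes there was 1 match in Ezh2, starting at base 4 after the start, and 1 in Suz12, starting 219 bases before it. These stretches are chr6:47595009-47595038 (minus strand) and chr11:79992876-79992905 (plus strand), with the motif in capitals.
Ezh2: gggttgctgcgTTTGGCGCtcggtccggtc
Suz12: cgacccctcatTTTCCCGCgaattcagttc
Such a match describes the letters and not a bound site.

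Total counts per library ran from 18608881 to 23253367, and 1 library stood apart. In wild type replicate 3 a single record without a symbol took 44.6% of all counts, against at most 5.90% in the other libraries, which left an effective depth of 10.1 M counts after TMM scaling, against 21.3 to 25.8 M. The submitters' sample names carry the numbers 11 to 13 for the null libraries and 14 for wild type replicate 3, and 3-digit numbers for wild type replicates 1 and 2. Smchd1 itself followed the labels, at 4.29, 4.41 and 3.95 RPKM in the null libraries, against 38.4, 36.8 and 32.9 RPKM in the wild type libraries. All 10 neural stem cell markers on the list used were expressed, with summed levels of 5766 to 5934 CPM in null and 5821 to 6138 CPM in wild type. Markers of microglia, vessels and fibroblasts summed to at most 3.37 CPM in any library, with Itgam, Tmem119 and Cdh5 at 0 counts in all 6. Oligodendrocyte lineage markers were plentiful and split the wild type group, at 1481 to 1573 CPM in null, against 1264, 1164 and 1676 CPM in wild type replicates 1, 2 and 3. Astrocyte markers summed to 233 to 254 CPM in null, against 210.5, 217 and 273 CPM in wild type replicates 1, 2 and 3. Neuron markers summed to 1384 to 1422 CPM in null and 1488 to 1520 CPM in wild type. A single gene of the neuron list averaged 1032 CPM over the 6 libraries and so made up most of that sum.

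The level of the 10 genes spanned a wide range and kept nearly the same order in every library. Levels are given as RPKM, counts per kilobase of the deposited gene length and per M TMM-scaled counts, so that genes can be compared. Ezh2 stood highest, at 52.8 ± 4.71 RPKM (mean ± SD over the 6 libraries), above 91.1% of all tested genes. Rnf2 followed at 45.0 ± 6.14, Suz12 at 36.9 ± 2.83, Bmi1 at 36.5 ± 4.29 and Eed at 24.5 ± 2.67 RPKM. Kdm2b stood at 14.1 ± 1.24, Pcgf6 at 9.69 ± 1.19 and Jarid2 at 8.93 ± 0.394 RPKM, close to the median of 7.96 RPKM over the tested genes. Ring1, at 2.63 ± 0.370 RPKM, and Ezh1, at 1.05 ± 0.119 RPKM, stood far below their paralogues, and Ezh1 was above only 16.5% of tested genes. Ezh2 exceeded Rnf2, and Rnf2 exceeded Suz12, in 6 of 6 libraries, although their ranges over the libraries overlapped. Suz12 and Bmi1 did not differ beyond their spread, with Bmi1 below Suz12 in 2 of 6 libraries, and Pcgf6 and Jarid2 also overlapped, with Jarid2 lower in 5 of 6. The other neighbours in the order had ranges that did not overlap.

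**Figure D1:**
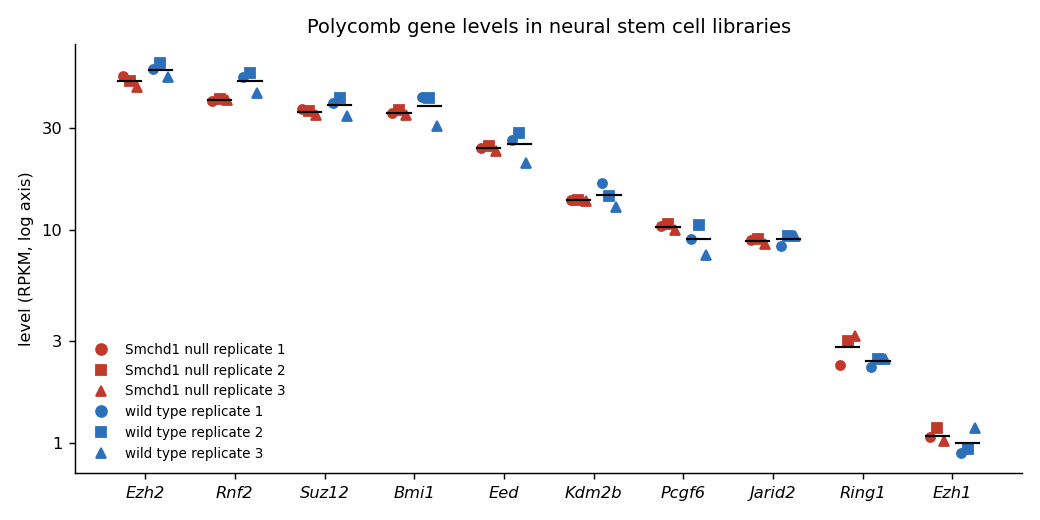
Level of each Polycomb gene in each library, as RPKM on a log axis, with Smchd1 null libraries in red, wild type libraries in blue, symbols for the replicate number and black bars for group means (n = 3 each). Genes are ordered by their mean, from Ezh2 at 52.8 RPKM to Ezh1 at 1.05 RPKM, and the red and blue symbols of a gene lie close together next to that span.

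None of the 10 Polycomb genes passed the test between Smchd1 null and wild type cells. The comparison asked whether the RNA levels of the Polycomb machinery differ when Smchd1 is lost. Fold changes were small, with log2 values from -0.30 for Rnf2 to 0.24 for Ring1 and a median of -0.08, against 0.00 over all tested genes. edgeR's quasi-likelihood test called 0 of the 10, where 0.577% of all tested genes were called at an adjusted p below 0.05. An unadjusted p under 0.05 was reached by 2 of the 10, Rnf2 and Ezh2, where 18.6% of all tested genes did so. DESeq2 and limma-voom also called 0 of the 10, where they called 2.8% and 0.894% of all tested genes. Rnf2 came closest, with an adjusted p of 0.0544 from DESeq2, just over the threshold, and 0.105 from limma-voom. With sample quality weights limma-voom called 4, Rnf2, Ezh2, Bmi1 and Suz12, all lower in null, where it called 17.4% of all tested genes lower. RNA was taken from whole cultures, so fewer cells of a type and less RNA per cell cannot be told apart.

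The PRC2 genes lie, in mm10, with Ezh2 at chr6:47530274-47595270 (Entrez 14056), Ezh1 at chr11:101191115-101226463 (Entrez 14055), Eed at chr7:89954654-89980976 (Entrez 13626), Suz12 at chr11:79993106-80034123 (Entrez 52615) and Jarid2 at chr13:44730774-44921643 (Entrez 16468). Among them Ezh2, the main H3K27 methyltransferase, had 52.6, 49.5 and 46.7 RPKM in the null libraries, against 56.2, 59.9 and 52.0 RPKM in the wild type libraries. The highest null library lay just above the lowest wild type library, so the groups overlapped. Ezh2 had a log2 fold change of -0.18 ± 0.08 (SE), with a 95% interval of -0.35 to -0.01 and an adjusted p of 0.26. Ezh1, the alternative catalytic subunit, had 1.06, 1.17 and 1.02 RPKM in null, against 0.896, 0.935 and 1.18 RPKM in wild type. Here wild type replicate 3 lay above all null libraries and both other wild type libraries below them. Between 50 and 105 reads per library stood behind these values, and the exact Poisson 95% interval of the 50 reads in wild type replicate 3 ran from 37.1 to 65.9, counting error only. The log2 fold change of Ezh1 was 0.14 ± 0.17, with an interval of -0.24 to 0.51.

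Eed, which binds the methylated histone tail, and Suz12, the subunit that holds the complex together, showed a common pattern over libraries. Eed had 24.0, 24.7 and 23.2 RPKM in null, against 26.2, 28.4 and 20.6 RPKM in wild type. Suz12 had 36.6, 35.8 and 34.3 RPKM in null, against 39.2, 41.2 and 34.1 RPKM in wild type. For both genes the null libraries lay between wild type replicate 3, the lowest, and wild type replicates 1 and 2. The log2 fold change of Eed was -0.07 ± 0.11, with an interval of -0.33 to 0.18, and that of Suz12 was -0.10 ± 0.08, with an interval of -0.29 to 0.08. Jarid2 had 8.90, 9.07 and 8.54 RPKM in null, against 8.42, 9.31 and 9.36 RPKM in wild type. It varied least of the 10 genes, by 1.11-fold between its highest and lowest library. Its log2 fold change was -0.03 ± 0.07 with an interval of -0.19 to 0.13, and its sign turned with upper-quartile scaling, to 0.0014.

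The PRC1 genes lie, in mm10, with Rnf2 at chr1:151469398-151500991 (Entrez 19821), Ring1 at chr17:34020792-34024680 (Entrez 19763), Bmi1 at chr2:18677018-18686629 (Entrez 12151), Pcgf6 at chr19:47033617-47050939 (Entrez 71041) and Kdm2b at chr5:122870664-122989270 (Entrez 30841). Among them Rnf2, the main ubiquitin ligase, had 39.8, 40.9 and 40.4 RPKM in the null libraries, against 51.6, 53.8 and 43.4 RPKM in the wild type libraries. It was the only 1 of the 10 genes whose groups did not overlap, with null lower, where the groups of 22.0% of all tested genes did not overlap and 10.6% were lower in null. Its log2 fold change of -0.30 ± 0.08 (95% interval -0.49 to -0.11, unadjusted p = 0.00633) had an adjusted p of 0.161 with edgeR. Ring1, its paralogue, had 2.33, 2.99 and 3.18 RPKM in null, against 2.29, 2.47 and 2.49 RPKM in wild type. Null replicate 1 lay among the wild type libraries and the other null libraries above them. Ring1 had a log2 fold change of 0.24 ± 0.16, with an interval of -0.13 to 0.60, from 51 to 145 reads per library.

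The PCGF gene Bmi1 had 35.1, 36.4 and 34.3 RPKM in null, against 41.6, 41.3 and 30.5 RPKM in wild type. The null libraries again lay between wild type replicate 3 and the other wild type libraries, and the log2 fold change was -0.10 ± 0.11, with an interval of -0.36 to 0.15. Pcgf6, the PCGF protein of an E2F6-containing variant complex, had 10.4, 10.6 and 9.97 RPKM in null, against 9.05, 10.5 and 7.57 RPKM in wild type, with wild type replicate 3 lowest. The log2 fold change of Pcgf6 was 0.18 ± 0.12, with an interval of -0.08 to 0.45. Kdm2b, the CpG-binding subunit, varied little in null, at 13.8, 13.8 and 13.7 RPKM, against 16.5, 14.3 and 12.8 RPKM in wild type. For Kdm2b the log2 fold change was -0.09 ± 0.09, with an interval of -0.29 to 0.12. Ezh2 and Kdm2b are each overlapped by an annotated long noncoding RNA without a count record of its own, and the library kit does not mark strand, so reads of the overlap cannot be separated.

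**Figure D2:**
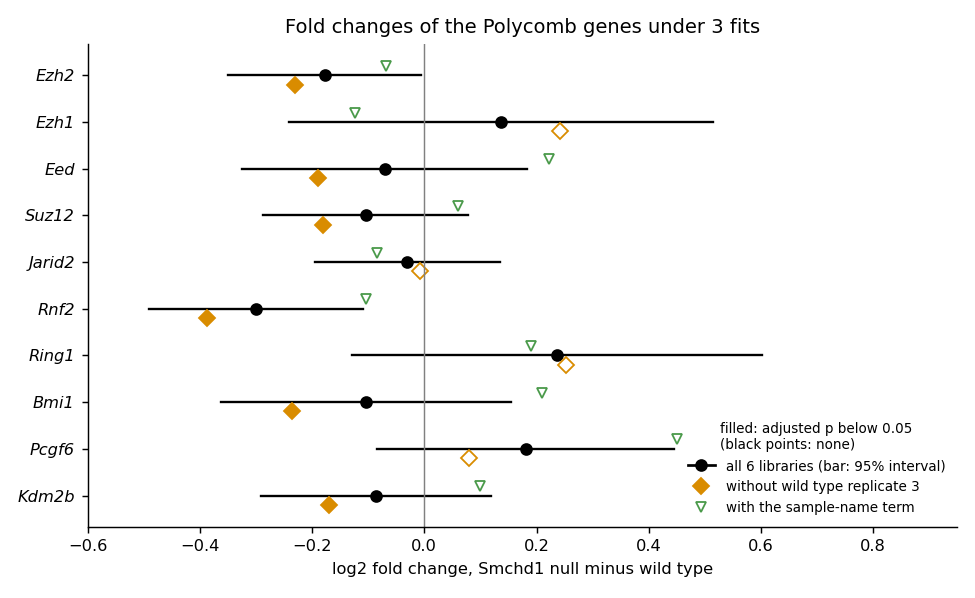
Log2 fold change of each gene, Smchd1 null minus wild type, with all 6 libraries (black points, bars for the 95% interval), without wild type replicate 3 (orange diamonds) and with the range of sample-name numbers as a term (green triangles), filled where the adjusted p was below 0.05. The 6 filled diamonds all lie below 0, while no black point or triangle is filled.

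The calls among these genes depended on wild type replicate 3. Without it, 6 of the 10 fell in null and 0 rose, where 19.4% of all tested genes were called lower and 19.7% higher. Those were Rnf2 (log2 fold change -0.39, adjusted p = 1.21e-05 from edgeR), Bmi1 (-0.24, adjusted p = 0.00124), Ezh2 (-0.23, adjusted p = 0.0041), Suz12 (-0.18, adjusted p = 0.00914), Eed (-0.19, adjusted p = 0.025) and Kdm2b (-0.17, adjusted p = 0.0376). Jarid2 (-0.01), Pcgf6 (0.08), Ezh1 (0.24) and Ring1 (0.25) did not pass there. Without wild type replicate 3, no wild type library shares the sample-name range of the null libraries. Genotype and that range therefore cannot be told apart in this fit, for these or any other genes. Leaving out any other single library called 0 of the 10. Over all tested genes those fits called 0.209%, 0.3% and 0.237% without null replicates 1, 2 and 3, and 0.27% and 0.312% without wild type replicates 1 and 2. With the range of sample-name numbers as a term, wild type replicate 3 is the only wild type library set against the null libraries. That fit called 0 of the 10, where 1.31% of all tested genes were called, and the median over the 10 genes stood at 0.08. The sign turned for Bmi1 (0.21), Eed (0.22), Suz12 (0.06), Kdm2b (0.10) and Ezh1 (-0.12), while Rnf2 stood at -0.10 and Ezh2 at -0.07. Pcgf6 stood at 0.45 with that term (adjusted p = 0.144) and at 0.45 among the libraries named 11 to 14 alone (adjusted p = 0.0663 from edgeR), its highest values under any setting tried. Jarid2 stood at -0.08 and Ring1 at 0.19 with that term.

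The null libraries lay between wild type replicate 3 and both other wild type libraries for 5 of the 10 genes, Eed, Suz12, Bmi1, Kdm2b and Ezh1, as they did for 20.3% of all tested genes. Ezh1 showed this in the opposite direction to the other 4. Rnf2 and Ezh2 instead had wild type replicate 3 as the wild type library nearest to null. The same position of the null libraries held for 8 of 9 oligodendrocyte lineage markers, for example Pdgfra, with wild type replicate 3 on the high side of null in all 8. The part of that difference between cultures in the Polycomb values was not tested.

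**Figure D3:**
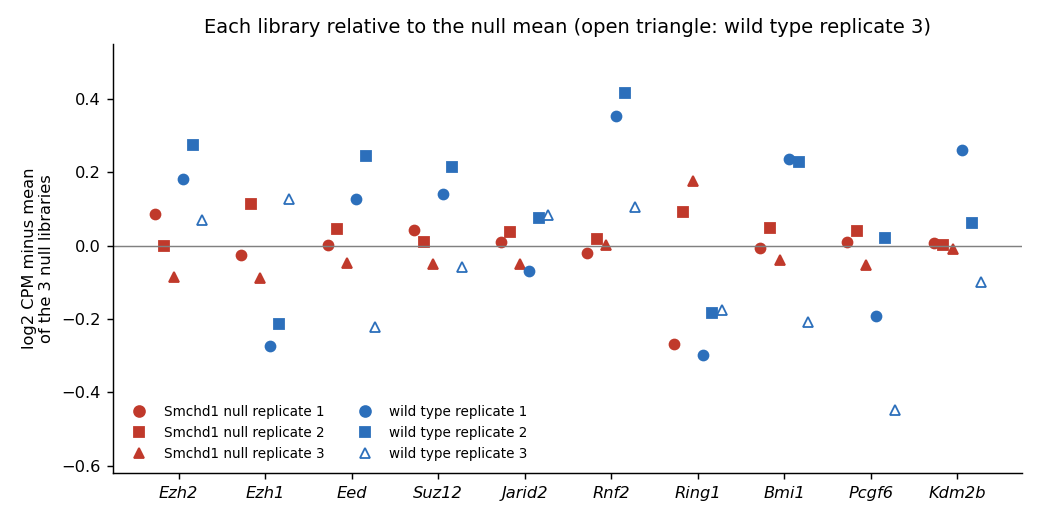
Each library's log2 CPM minus the mean of the 3 null libraries, with null libraries in red, wild type in blue and wild type replicate 3 as open triangles. For Eed, Suz12, Bmi1 and Kdm2b the open triangle lies below the null libraries and wild type replicates 1 and 2 above them, and for Rnf2 all wild type libraries lie above the null libraries.

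Proliferation genes were, in sum, higher in wild type replicates 1 and 2 than in the other 4 libraries. Of 20 such genes, all tested, edgeR called 0 with all libraries, where 0.577% of all tested genes were called. An unadjusted p under 0.05 was reached by 2 of the 20, where 18.6% of all tested genes did so. Log2 fold changes lay below 0 for 19 of the 20, with a median of -0.14. Their summed level was 4409, 4053 and 4295 CPM in the null libraries, against 4929, 4629 and 4267 CPM in wild type replicates 1, 2 and 3. Without wild type replicate 3, 15 of the 20 fell and 0 rose, where 19.4% of all tested genes were called lower and 19.7% higher. With upper-quartile scaling 16 of the 20 lay below 0, and with the sample-name term 4 did. Cdc45, a replication factor, stood at 21.4 ± 0.877 RPKM in null and 25.8 ± 2.97 RPKM in wild type (log2 fold change -0.28 ± 0.09, adjusted p = 0.205). Uhrf1, which maintains DNA methylation in S phase, stood at 51.7 ± 4.33 RPKM in null and 61.4 ± 5.86 RPKM in wild type (-0.25 ± 0.09, adjusted p = 0.223). Cdc45 (-0.36) and Uhrf1 (-0.33) fell without wild type replicate 3, and with the sample-name term they stood at -0.07 and -0.09. The part of proliferation in the values of Ezh2 and the other Polycomb genes was not tested.

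Within each complex the balance between paralogues was strongly one-sided in both groups. Per kilobase, Ezh2 exceeded Ezh1 by 49.4, 42.2 and 45.8 times in the null libraries, against 62.7, 64.1 and 44.0 times in the wild type libraries. Such a ratio within a library does not depend on how libraries are scaled. The null values lay between wild type replicate 3 and the others except for null replicate 2, and the log2 ratio differed by -0.30 between null and wild type (exact permutation test, two-sided, p = 0.3, where 0.1 is the smallest p that 3 against 3 libraries allow). Rnf2 exceeded Ring1 by 17.1, 13.7 and 12.7 times in null, against 22.6, 21.8 and 17.5 times in wild type, so that the groups did not overlap. The groups of Rnf2 by itself did not overlap either, so the ratio is not a separate result. The nearest libraries were null replicate 1 and wild type replicate 3, which had 51 reads of Ring1. The log2 ratio of Rnf2 to Ring1 was 3.84 ± 0.222 in null and 4.36 ± 0.201 in wild type (mean ± SD, n = 3 each), a difference of -0.51 (exact permutation test, two-sided, p = 0.1, the smallest possible). Without wild type replicate 3 the differences were -0.47 for Ezh2 to Ezh1 and -0.63 for Rnf2 to Ring1, and among the libraries named 11 to 14 they were 0.06 and -0.28.

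Among the 6 PCGF genes, which compete for RNF2 and RING1, Bmi1 made up 41.7, 42.0 and 43.3% of the summed level per kilobase in null, against 46.3, 47.7 and 40.1% in wild type. The groups overlapped, and the share differed by -2.37 percentage points (exact permutation test, two-sided, p = 0.4). That difference was -4.66 points without wild type replicate 3, -0.867 points without wild type replicate 2 and 2.21 points among the libraries named 11 to 14. Pcgf3 came next, with 31.7 ± 0.757% in null and 32.2 ± 2.83% in wild type. Pcgf6 made up 12.4 ± 0.165% in null and 10.7 ± 1.21% in wild type. Pcgf5, Pcgf1 and Pcgf2 held 7.79, 5.21 and 0.512% in null, against 7.04, 4.82 and 0.523% in wild type. Pcgf2, the paralogue closest to Bmi1, was thus the least expressed of the 6 in both groups.

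**Figure D4:**
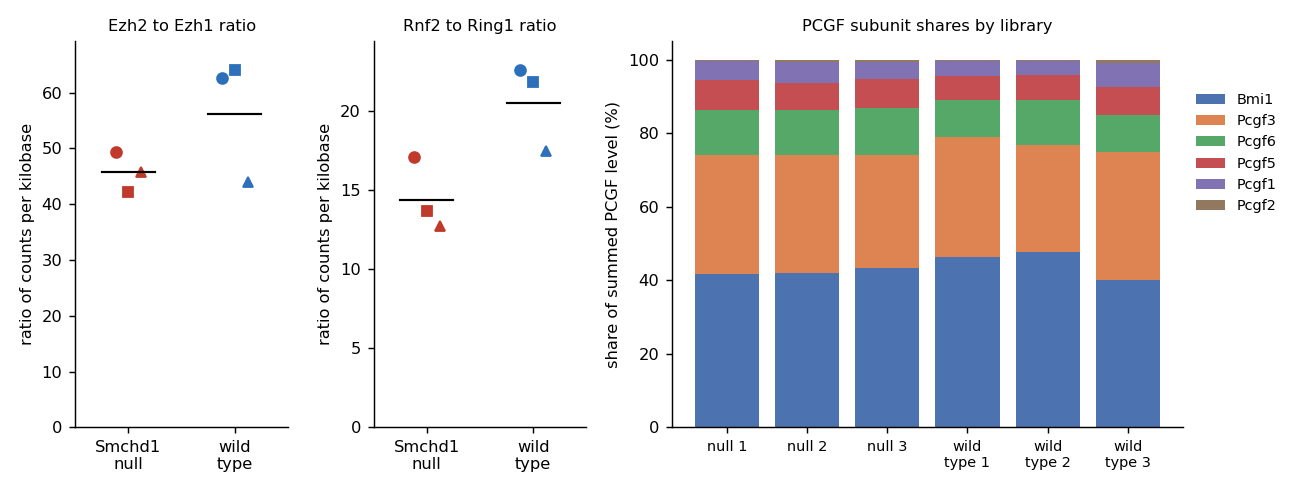
Ratio of Ezh2 to Ezh1 and of Rnf2 to Ring1 per kilobase in each library (left and middle, black bars for geometric means, n = 3 each), and shares of the 6 PCGF genes in their summed level by library (right). The Rnf2 to Ring1 ratio is 12.7 to 17.1 in null and 17.5 to 22.6 in wild type, and Bmi1 and Pcgf3 make up most of the PCGF level in all 6 libraries.

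The rest of the Polycomb network gave no call either. Of 59 further subunits and antagonists on 7 lists, 58 were tested and edgeR called 0, where 0.577% of all tested genes were called. An unadjusted p under 0.05 was reached by 11 of the 58, close to the 18.6% of all tested genes. The groups of 7 of the 58 did not overlap with null lower, and those of another 6 did not overlap with null higher. Over all tested genes, the groups of 22.0% did not overlap, counting both directions, and 10.6% of all tested genes were lower in null. Of these 58, 32 had log2 fold changes below 0 and 26 above, with a median of -0.03, while upper-quartile scaling put 28 below and 30 above. DESeq2 and limma-voom called 0 of them. Without wild type replicate 3, 12 of the 58 rose and 17 fell, where 19.7% of all tested genes were called higher and 19.4% lower. By list, with the 10 genes included, the median log2 fold change was -0.12 over 6 PRC2 core genes and 0.02 over 7 tested PRC2 accessory genes. It was 0.15 over 8 RING and PCGF genes, 0.10 over 13 genes listed with canonical PRC1 and -0.09 over 21 variant PRC1 genes. The 1 gene not tested was Ezhip, an inhibitor of PRC2, which was barely detected.

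In the PRC2 lists the histone-binding subunit Rbbp4 stood at 62.7 ± 2.02 RPKM in null and 71.1 ± 6.72 RPKM in wild type (log2 fold change -0.18 ± 0.08), and Rbbp7, its paralogue, at 108 ± 2.18 RPKM in null and 119.4 ± 17.4 RPKM in wild type (-0.14 ± 0.10). The accessory subunit Phf19 stood at 6.63 ± 0.492 RPKM in null and 5.53 ± 0.755 RPKM in wild type (0.27 ± 0.11, adjusted p = 0.244). Phf1, another accessory subunit, had a log2 fold change of 0.31 ± 0.21. Without wild type replicate 3 the calls in these lists outside the 10 genes were Rbbp4 (-0.26) and Rbbp7 (-0.26) lower and Phf19 (0.37) higher. Of all tested genes, 19.4% were called lower and 19.7% higher in that fit. With the sample-name term Rbbp4 stood at -0.02, Rbbp7 at 0.13 and Phf19 at 0.06, with no call.

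Among the genes listed here with canonical PRC1, which include the related genes Sfmbt1 and Sfmbt2, Phc1, a polyhomeotic subunit, had the smallest p. Phc1 had 7.60, 7.87 and 7.59 RPKM in null, against 9.28, 9.05 and 8.99 RPKM in wild type. Its groups did not overlap, as for 22.0% of all tested genes, and wild type replicate 3 lay with the other wild type libraries. The log2 fold change of Phc1 was -0.25 ± 0.06, with an adjusted p of 0.143 from edgeR. Sfmbt2, an imprinted gene related to a Drosophila Polycomb protein, had 0.355, 0.256 and 0.273 RPKM in null, against 0.132, 0.0887 and 0.239 RPKM in wild type. Its log2 fold change of 1.07 ± 0.33 was the largest in the network, with an adjusted p of 0.188, and it was 1.40 without wild type replicate 3 (adjusted p = 0.000322) and 0.30 with the sample-name term (adjusted p = 0.774). Among variant PRC1 genes, L3mbtl2 of the Pcgf6 complex stood at 13.2 ± 0.889 RPKM in null and 11.5 ± 0.561 RPKM in wild type (0.20 ± 0.08). Bcor of the Kdm2b complex stood at 5.55 ± 0.405 RPKM in null and 6.41 ± 0.544 RPKM in wild type (-0.21 ± 0.09). Of the remaining PCGF genes, Pcgf5 had a log2 fold change of 0.13 ± 0.10 and Pcgf1 of 0.17 ± 0.20. Without wild type replicate 3, Phc1 (-0.26) and Bcor (-0.25) fell and L3mbtl2 (0.21) rose. The fit without that library called 19.4% of all tested genes lower and 19.7% higher. With the sample-name term Phc1 stood at -0.23, Bcor at -0.13 and L3mbtl2 at 0.17, with no call.

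The enzymes that remove Polycomb marks did not pass. Kdm6a, an H3K27 demethylase encoded on the X chromosome, had 7.49, 7.80 and 7.66 RPKM in null, against 9.64, 9.47 and 8.20 RPKM in wild type. Its groups did not overlap, as for 22.0% of all tested genes, and its log2 fold change was -0.26 ± 0.08 (adjusted p = 0.185 from edgeR). Kdm6b, the second demethylase, stood at 2.60 ± 0.383 RPKM in null and 2.49 ± 0.886 RPKM in wild type. In the complex that removes ubiquitin from H2A, log2 fold changes were -0.11 ± 0.07 for Hcfc1 and 0.45 ± 0.30 for Asxl3, and the median of its 11 genes was -0.02. Without wild type replicate 3, Kdm6a (-0.32) fell, and Kdm6b (0.38) and Asxl3 (0.74) rose. That fit called 19.4% of all tested genes lower and 19.7% higher. With the sample-name term Kdm6a stood at -0.10, Kdm6b at -0.43 and Asxl3 at -0.18, with no call.

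**Figure D5:**
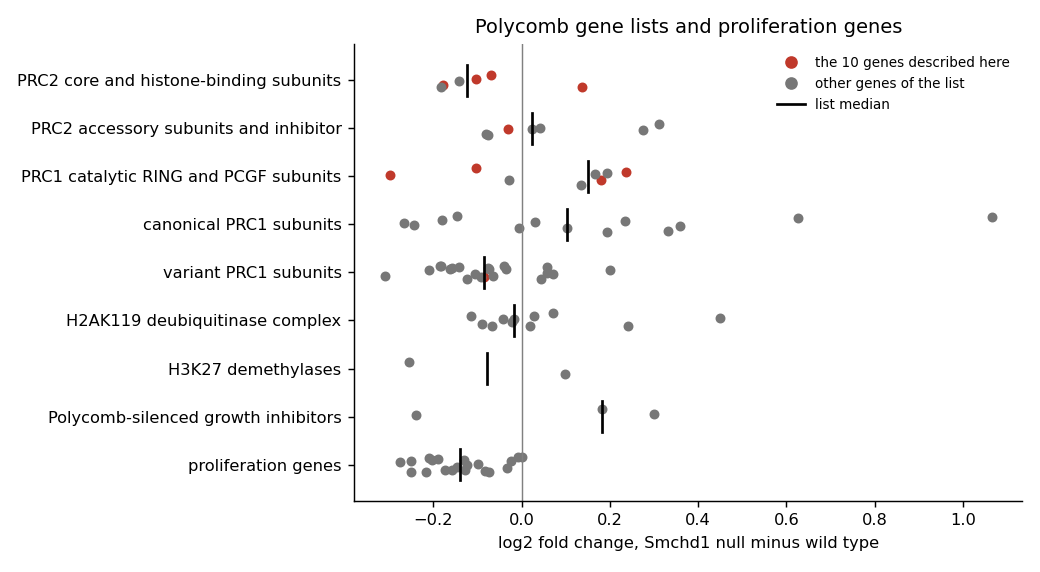
Log2 fold change, Smchd1 null minus wild type, of the tested genes of the Polycomb lists and of proliferation genes, with the 10 genes described here in red, other genes in grey and list medians as black bars. The PRC2 core genes other than Ezh1 and nearly all proliferation genes lie below 0. Sfmbt2, at 1.07 among the genes listed with canonical PRC1, lies furthest to the right.

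Genes that Polycomb complexes commonly keep silent were mostly too low to be tested. Of 34 lineage regulators, 2 were abundant enough to be tested and 7 had 0 counts in all libraries, and of 39 Hox genes 0 were tested and 11 had 0 counts. A count of 0 over a group allows up to 0.0461 CPM in null and 0.0506 CPM in wild type (3 counts over the group, counting error only). Summed over the Hox genes, the level was 1.32, 0.843 and 0.758 CPM in null, against 0.504, 0.554 and 4.17 CPM in wild type replicates 1, 2 and 3. The neural regulator Barhl2 had 1.10, 1.70 and 1.21 RPKM in null, against 2.01, 2.08 and 2.23 RPKM in wild type, with a log2 fold change of -0.65 ± 0.20 (adjusted p = 0.177). Barhl2 fell without wild type replicate 3 (-0.62, adjusted p = 0.0119 from edgeR), where 19.4% of all tested genes were called lower. With the sample-name term Barhl2 stood at -0.74 (adjusted p = 0.251 from edgeR). Neurod1 was close to the limit of detection in both groups, at 0.277 ± 0.0791 RPKM in null and 0.243 ± 0.136 RPKM in wild type.

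The cell cycle inhibitor locus that Bmi1 represses was expressed in these cultures. Cdkn2a had 17.4, 17.6 and 18.1 RPKM in null, against 14.8, 15.9 and 16.2 RPKM in wild type. Its groups did not overlap, as for 22.0% of all tested genes. The difference on the log2 scale was 0.18 ± 0.08, with an adjusted p of 0.282 with all libraries and 0.0623 without wild type replicate 3. Cdkn2b, its neighbour, had 26.7, 28.7 and 25.2 RPKM in null, against 17.6, 20.1 and 28.8 RPKM in wild type, with wild type replicate 3 the highest of the 6 (0.30 ± 0.17, adjusted p = 0.355). Without that library the log2 fold change of Cdkn2b was 0.51 (adjusted p = 0.000106 from edgeR), where 19.7% of all tested genes were called higher. With the sample-name term the log2 fold change of Cdkn2b was -0.10. Cdkn1c, a growth inhibitor and imprinted gene, stood at a log2 fold change of -0.24 (adjusted p = 0.520 from edgeR). With all libraries 0 of these 3 genes passed, where 0.577% of all tested genes were called.

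Over the 6 libraries, the log2 CPM of Bmi1 and Eed ran together most closely of the 10 genes, with a Pearson r of 0.964. Suz12 was most like Eed (0.917) and Ezh2 most like Suz12 (0.894), while Ring1 resembled no other member above 0.377. Among the 9845 tested genes whose average log2 CPM was 3 or more, the single most alike gene was Psmc6 for Rnf2 (r = 0.998), Pwwp2a for Ezh2 (0.990), Zfp146 for Suz12 (0.999), Vps36 for Eed (0.994) and Vma21 for Bmi1 (0.996). For the other 5 genes it was ND4 for Ezh1 (0.995), Clk2 for Jarid2 (0.988), Oard1 for Ring1 (0.978), Cog8 for Pcgf6 (0.993) and Tspan31 for Kdm2b (0.997). These points share libraries and their scaling, and each most alike gene was picked for the highest r among 9845 genes, which raises r. The values therefore describe likeness over 6 libraries and carry no test.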

How the data were processed

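RNA was sequenced from 3 Smchd1 null and 3 wild type libraries, made from 1 µg of total RNA each with a TruSeq RNA v2 kit, per the labels' protocols. Libraries of that kit carry no strand information. The deposited values are raw counts per Entrez gene with a gene length in bases, per the file headers. Build mm10 and the tools limma 3.22.0, edgeR 3.8.2, featureCounts and CASAVA 1.8.2 are named, per the submitters' processing notes. The sources used here do not give the aligner, the annotation or how reads matching several genes were counted.

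Of 27179 gene IDs, 25275 matched a RefSeq table of GRCm38.p6, including every listed gene. The test was that of edgeR 4.0.16 under R 4.3.3 (filterByExpr, TMM scaling, robust quasi-likelihood F-test, genotype as the only term, two-sided), with Benjamini-Hochberg adjustment over 14207 genes. Standard errors and 95% intervals follow from each fold change and its F value. RPKM values were computed from the deposited counts as TMM-scaled CPM per kilobase. Ratios of paralogues were compared with exact permutation tests over libraries.

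The 10 genes and the 18 gene lists were chosen with earlier results of these data known. Named genes are the 10 genes, the 2 other tested genes with the smallest p on each Polycomb and proliferation list, the most alike gene of each member, and Smchd1. Marker genes at 0 counts, Ezhip, Pdgfra, Cdkn1c, Pcgf2 and Pcgf3 were named after their values were seen. The 18 alternatives included DESeq2 1.42.0 and limma-voom from limma 3.58.1 with and without sample quality weights. Others were edgeR without robust moderation, other scalings and filters, and records above 1% of a library left out. The rest were the replicate number or the sample-name range as a term, the libraries named 11 to 14 alone, and each library left out. The edgeR procedure was tested on simulated data with log2 fold changes of 1 and 2 in either direction. It recovered 78.8% and 91.8% of those genes, with 18 false calls among 14116 genes. Changes as small as those of the 10 genes were not simulated, so their recovery is not known.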

Additional observations from a re-analysis of the deposited data

How the results depend on the processing

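The count of 0 calls among the 10 Polycomb genes and among the 58 other network genes held under 16 of 18 alternatives. It was 4 and 24 with limma-voom with sample quality weights, where 2700 of 14207 tested genes were called higher and 2468 lower. Of the 24, 11 were higher and 13 lower. Leaving out 1 library each gave 0 to 6 and 0 to 29. Both upper ends came from leaving out wild type replicate 3, where 19.7% of all tested genes were called higher and 19.4% lower. Over all genes, 82 calls became 398 with DESeq2, 127 with limma-voom, 5168 with quality weights, 222 without a filter, 186 with the sample-name term and 376 among the libraries named 11 to 14, and leaving out 1 library each gave 30 to 5676. Same-numbered libraries of the groups did not deviate together (correlations of -0.0059, 0.0275 and -0.0411), and not every library correlated best with its own number. The replicate block gave 54 calls over all genes and 0 among the 10, and it turned no sign among them. Leaving out records above 1% of a library gave 83 calls over all genes and 0 among the 10.

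Among the libraries named 11 to 14 the null minus wild type difference was 0.0557 for the log2 Ezh2 to Ezh1 ratio, -0.281 for the log2 Rnf2 to Ring1 ratio and 2.21 percentage points for the Bmi1 share. Leaving out 1 library each gave -0.471 to -0.200, -0.635 to -0.422 and -4.66 to -0.867. Log2 fold changes turned sign with the sample-name term and in the libraries named 11 to 14 for Ezh1 (-0.12 and -0.13), Eed (0.22 and 0.22), Suz12 (0.0598 and 0.0586), Bmi1 (0.21 and 0.21), Kdm2b (0.10 and 0.10), Rbbp7 (0.13 and 0.12), Pcgf1 (-0.20 and -0.20), Asxl3 (-0.18 and -0.18), Kdm6b (-0.43 and -0.43) and Cdkn2b (-0.10 and -0.10). Jarid2 turned to 0.0033 with quality weights and 0.0014 with upper-quartile scaling, and Neurod1 to -0.15 with quality weights. Leaving out 1 library each gave -0.19 to 0.0243 for Eed, -0.17 to 0.0115 for Kdm2b, -0.078 to 0.38 for Kdm6b and -0.16 to 0.56 for Neurod1. The cause was not tested. Depth limits Ezh1 and Ring1 most, with as few as 50 and 51 reads in wild type replicate 3.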
